A study of Mus musculus with 2 samples.

Results

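The Dlk1, Meg3 and Dio3 domain is an imprinted region of distal mouse chromosome 12, and 6 of its genes were examined here for H3K9me3 in intestinal stem cells. The genes were Dlk1, Meg3, Rtl1, Rian, Mirg and Dio3, 6 of the 49595 genes placed on chromosomes 1 to 19, X and Y in the gene table used. A peak was assigned to a gene when it overlapped the gene's GRCm38 span or the 5 kb on either side. This gave 13 peaks, out of 40119 in the deposited list.

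H3K9me3, trimethylation of lysine 9 of histone H3, marks silenced chromatin. It was profiled by chromatin immunoprecipitation and sequencing (ChIP-seq) in 1 library, beside 1 control library whose title calls it input and whose antibody label reads IgG. Both libraries came from GFP-high, CD24-low cells sorted from pooled Lgr5-EGFP-IRES-creERT2;setdb1fl/fl mice of the C57BL/6 strain (12 mice, 8 weeks of age). The creERT2 recombinase is driven from Lgr5, a gene of cycling crypt stem cells, and Setdb1, which encodes an H3K9 methyltransferase, is floxed. Whether recombination was induced is not stated in the labels. No second genotype and no replicate was analysed here, so no test between conditions was possible. Expression was not measured, and the sorted cell type could not be checked against marker transcripts.

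In an imprinted domain genes can be read wholly or mainly from the chromosome of 1 parent. In this domain Dlk1, Rtl1 and Dio3 are the protein-coding genes known to be read wholly or mainly from the paternal copy. Meg3, Rian and Mirg are non-coding RNAs read from the maternal copy and carry arrays of small RNAs. Methylated control regions between Dlk1 and Meg3 and at the Meg3 promoter distinguish the copies. At methylated imprinting control regions the zinc finger protein ZFP57 binds the hexamer TGCCGC, and it recruits TRIM28 together with SETDB1, which places H3K9me3. The tags here were not separated by parental chromosome.

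By normalized tags, the tallest peak of the domain lay across the start of Meg3, a long non-coding RNA. It ran from 109538760 to 109543117 on chromosome 12, 2236 bp before the Meg3 start and 2121 bp after it. Its centre lay 57.5 bp before that start (-57.5 bp). The promoter windows that H3K9me3 peaks covered are printed here because they are the regulatory sequences under the mark. They come from RefSeq on GRCm38.p6 and hold 250 bases before and 50 bases after a start, 5′ to 3′ on the gene's strand. Capitals mark the hexamer TGCCGC, searched on both strands as TGCCGC or GCGGCA, and the palindrome TGACGTCA, the cyclic AMP response element.
Meg3, first start, chr12:109540746-109541045, plus strand, inside the tallest peak: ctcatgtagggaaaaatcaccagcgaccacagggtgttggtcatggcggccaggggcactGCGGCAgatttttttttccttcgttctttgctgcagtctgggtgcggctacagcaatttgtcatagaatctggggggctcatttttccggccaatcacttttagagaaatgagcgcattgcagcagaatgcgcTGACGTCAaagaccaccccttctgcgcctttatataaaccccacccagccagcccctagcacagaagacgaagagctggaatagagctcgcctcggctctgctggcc
Meg3, second start, chr12:109545148-109545447, plus strand, overlapping the next peak: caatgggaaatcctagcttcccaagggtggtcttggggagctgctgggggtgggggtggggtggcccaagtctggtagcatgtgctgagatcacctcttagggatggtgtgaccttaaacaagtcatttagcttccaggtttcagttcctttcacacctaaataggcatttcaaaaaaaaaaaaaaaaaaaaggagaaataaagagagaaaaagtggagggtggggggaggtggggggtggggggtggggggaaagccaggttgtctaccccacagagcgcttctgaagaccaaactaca
Gm34081, a non-coding RNA of the opposite strand, first start, chr12:109540100-109540399, minus strand, inside the tallest peak: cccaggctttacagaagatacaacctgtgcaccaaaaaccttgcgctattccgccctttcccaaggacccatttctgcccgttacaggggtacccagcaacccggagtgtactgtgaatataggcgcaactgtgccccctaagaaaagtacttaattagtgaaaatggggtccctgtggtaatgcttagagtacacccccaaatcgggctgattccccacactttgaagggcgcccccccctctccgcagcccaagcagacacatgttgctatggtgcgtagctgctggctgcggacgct
Gm34081, second start, chr12:109539715-109540014, minus strand, inside the tallest peak: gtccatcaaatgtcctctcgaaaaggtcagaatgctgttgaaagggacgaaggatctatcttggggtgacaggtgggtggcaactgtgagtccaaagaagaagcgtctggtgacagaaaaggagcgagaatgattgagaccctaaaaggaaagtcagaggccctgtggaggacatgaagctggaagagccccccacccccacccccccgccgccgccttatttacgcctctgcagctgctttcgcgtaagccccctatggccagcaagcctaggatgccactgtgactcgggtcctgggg

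The first Meg3 window held 1 TGCCGC on the minus strand, beginning at base -190 from the start, and 1 TGACGTCA beginning at base -57. Of 32851 promoter windows of this length, 11.6% held TGCCGC, 1.79% held TGACGTCA and 0.329% held both. The window had 13 CpG dinucleotides, against a median of 7 over all windows. Of all windows, 12454 held 13 or more, and the median was 15 in windows overlapping a strong peak. The second Meg3 window, 4402 bp further on, had 1 CpG and neither word. Each of the printed Gm34081 windows had 11 CpG dinucleotides and neither word. Gm34081 begins 847 bp before Meg3 and is read away from it, so the tallest peak spanned the starts of both transcripts. A match to these letters is a description of the sequence and no evidence that a factor was bound.

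Windows were matched for Dlk1, Rian, Mirg and Dio3 too, and none of these overlapped a peak or held either word. The nearest peak lay 604 bp from the Dlk1 window, 392 bp from the Dio3 window, 3947 bp from the Rian window and 7585 bp from the Mirg window. The Dio3 window was rich in CpG, with 25, while the Rian window had 0. A window of Rtl1 was not used here.

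All 6 genes had at least 1 peak, where 40.0% of all genes did (55.6% of protein-coding genes and 34.6% of long non-coding RNA genes). Among genes within the length range of the 6, from 1868 to 57772 bp, the share was 45.1%. A strong peak, meaning one in the top 10% of the list with at least 50.8 normalized tags, was present at 1 of the 6, Meg3, where 4.82% of all genes had one (6.61% of protein-coding genes, 3.21% of long non-coding RNA genes and 4.20% of genes in that length range). Normalized tags are ChIP tags per peak scaled by the authors to a fixed library total. Of the 13 peaks, 12 touched a gene span and 1 was shared by Rtl1 and Rian. Neighbouring genes of 1 domain are not independent, and their counts describe 1 library.

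Most of these peaks were small. Their median was 14.7 normalized tags and 696 bp, close to the medians of 17.3 normalized tags and 769 bp over the 39972 peaks on chromosomes 1 to 19, X and Y. Of the 13, 7 lay under that median tag count, and 5 were 500 bp wide. The control stood at its lowest value, 0.5 tag, in 6 of the 13, where 43.0% of all peaks did.

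**Figure D1:**
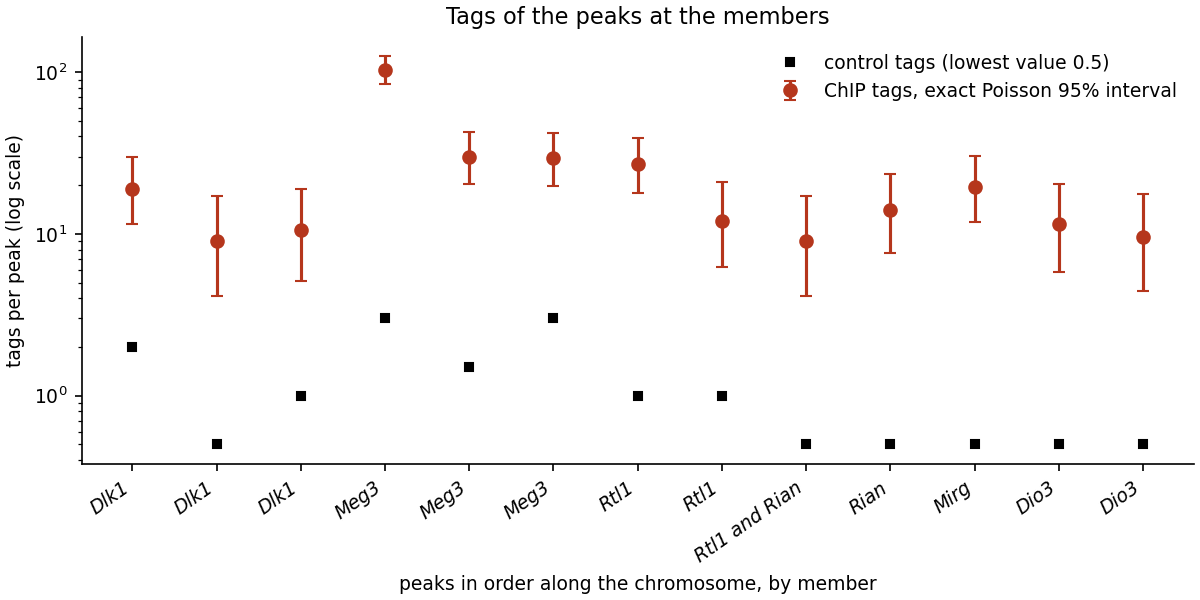
ChIP tags (red points, with exact Poisson 95% intervals) and control tags (black squares) on a log scale for each of the 13 peaks at the 6 genes, in order along the chromosome. The tallest Meg3 peak, with 103.5 tags, stands above the other 12, which lie between 9 and 30 tags.

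At the paternally read Dlk1, which encodes a membrane protein related to Notch ligands, 3 peaks touched the gene. The tallest (chr12:109453476-109454231) held 19.9 normalized tags, or 19 ChIP tags (exact Poisson 95% interval 11.4 to 29.7), beside 2 control tags. The other peaks, at chr12:109460930-109461430 and chr12:109462648-109463148, lay near the far end of the gene and held 9.43 and 11 normalized tags. The first of these was at the lowest tag count among the 13, with 9 ChIP tags (4.12 to 17.1). All 3 Dlk1 intervals overlapped, so the order of these peaks was not resolved at this depth.

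Meg3 also had 3 peaks, and they were the tallest of the 13 by normalized tags. Only the peak across the start was resolved from the tallest Rtl1 peak (17.8 to 39.3 ChIP tags). The intervals of the other Meg3 peaks, 20.2 to 42.8 and 19.8 to 42.2, overlapped that of Rtl1. The peak across the start was 4357 bp wide and held 108.4 normalized tags, from 103.5 ChIP tags (84.5 to 125), beside 3 control tags. Scaled to the control library it held 70.8 tags, and the authors' fold over control was 23.61 (exact 95% interval of the tag ratio 7.86 to 116). The interval reflects the few control tags. Next came chr12:109545288-109546615 with 31.4 normalized tags beside 1.5 control tags, which overlapped the second Meg3 start. The peak after it, chr12:109548693-109550075, held 30.9 normalized tags beside 3 control tags and had a lower fold of 6.73. The peak across the start held 3.45 times the normalized tags of the next one, and the ChIP tag intervals of these peaks did not overlap (84.5 to 125 against 20.2 to 42.8).

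The height of the Meg3 peak came with its width and not with a dense signal. It held 24.9 normalized tags per kb, close to the median of 23 over all peaks and under the median of 39.1 over strong peaks. The 2 following peaks, at 23.7 and 22.4 per kb, were about as dense. By normalized tags it ranked 666 of 39972 peaks and 30 of the 1672 on chromosome 12, and by width it ranked 178. This 1 peak made up 34.04% of the normalized tags and 30.6% of the width of all 13. The peak caller's own score put it at 13.5, below the tallest Dlk1 peak at 16.5. Peaks between Mirg and Dio3 also scored higher, up to 16.

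**Figure D2:**
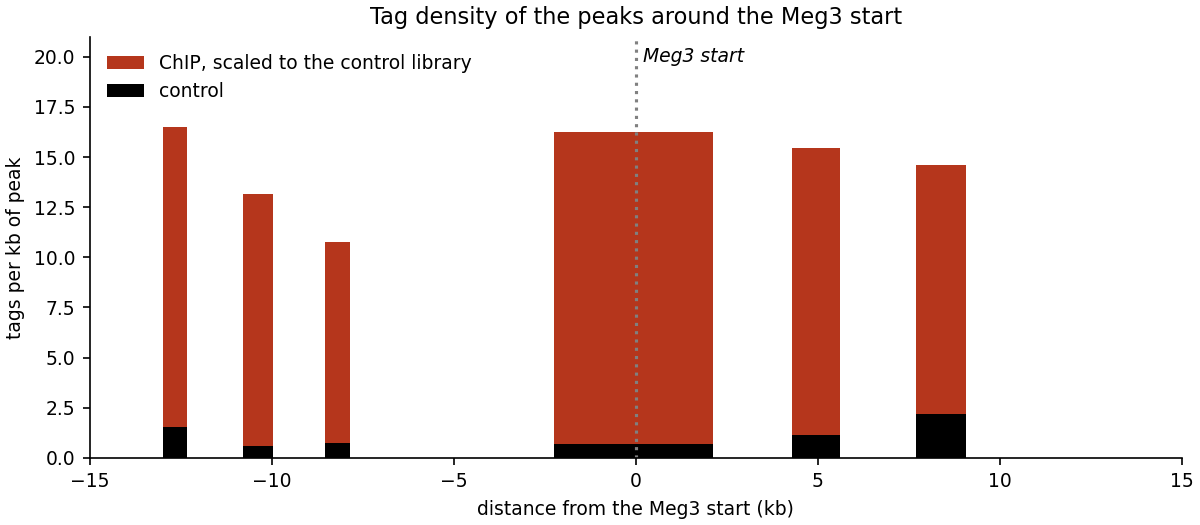
Tags per kb of peak for the 6 peaks within 15 kb of the Meg3 start, with ChIP tags scaled to the control library in red and control tags in black drawn in front. Bar widths are the peak widths to scale. The wide peak at the start stands at 16.2 tags per kb, beside 10.7 to 16.5 in the other peaks.

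Between Dlk1 and Meg3, 5 further peaks lay more than 5 kb from either span and so belong to none of the 6 genes. Those at chr12:109495246-109495746 and chr12:109505985-109506662 held 9.95 and 12 normalized tags. The 3 closest to Meg3 held 16.2, 16.8 and 11.5 normalized tags, with centres 12.7, 10.4 and 8.19 kb before the Meg3 start. The nearest of them (chr12:109532460-109533158) lay 7838 bp from the span and was the first peak outside the Meg3 window. This interval between Dlk1 and Meg3 holds the germline control region of the domain, but its coordinates were not used here, so none of the peaks is assigned to it. With the 3 closest and those of Meg3, 6 peaks lay within 15 kb of the Meg3 start.

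Rtl1, a retrotransposon-derived coding gene needed in the placenta, had 3 peaks in its window. The tallest (chr12:109589558-109591007) held 28.3 normalized tags beside 1 control tag, with 27 ChIP tags (17.8 to 39.3). A peak of 12.6 normalized tags followed at chr12:109592686-109593186. The third, chr12:109607941-109608441, lay 3523 bp past the Rtl1 span, the most distant assigned position, and touched Rian instead. It held 9.43 normalized tags.

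Rian, the host of the snoRNA array, and Mirg, the host of a microRNA cluster, had the fewest peaks per length among the 6 genes. Rian had 2, the shared one and chr12:109612760-109613456 with 14.7 normalized tags, or 0.295 peaks per 10 kb of its window. Mirg had 1, chr12:109742615-109743711, with 20.4 normalized tags beside 0.5 control tag (19.5 ChIP tags, 11.8 to 30.3), or 0.409 per 10 kb. The values for Dlk1 and Dio3 were 1.44 and 1.69 per 10 kb.

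Dio3 encodes the deiodinase that inactivates thyroid hormone. It had 2 peaks. The one on the gene (chr12:110279671-110280171) held 9.95 normalized tags, from 9.5 ChIP tags (4.45 to 17.7). The other (chr12:110277262-110277933) ended 1297 bp before it, within the antisense non-coding gene Dio3os, and held 12 normalized tags. Both stood at 0.5 control tag and near the lowest tag count in the list, so a lower level at Dio3 than at Dlk1 was not detectable at this depth.

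Just outside the windows, the nearest peak not assigned to the gene in question lay 10569 bp from Dlk1, 8342 bp from Rtl1, 10759 bp from Rian, 10328 bp from Mirg and 13997 bp from Dio3. These peaks held 9.43 to 15.2 normalized tags. Those beside Rtl1 and Rian are counted at the other of these genes.

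Small RNA genes were next set against the peaks. The stretch from the outer end of Dlk1 to the outer end of Dio3 (chr12:109452485-110281097, 829 kb) held 61 microRNA genes, and a peak overlapped 6 of them (9.84%, where 7.57% of all microRNA genes had a peak on their span). None of the 19 snoRNA genes of the stretch had one, where 2.18% of all snoRNA genes did. A gap of 110 kb without a peak, from 109613456 to 109723941, covered all 19 and the first part of the microRNA cluster. Mir431 and Mir127 lay in the Rtl1 peaks of 28.3 and 12.6 normalized tags. They are known to be transcribed antisense to Rtl1 and to be complementary to its transcript. Mir300 lay in a peak of 15.2 normalized tags before Mirg, and Mir409, Mir412 and Mir369 lay together in the Mirg peak.

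The mature microRNAs under these peaks are shown to identify them, 5′ to 3′ from RefSeq on GRCm38.p6, with the seed (bases 2 to 8) in capitals. All 6 genes matched the sequence table. No seed was shared among these 12 sequences or with any other of the 113 mature sequences of the stretch, which had 104 distinct seeds. The peaks are on the genes, and no microRNA level was measured.
mmu-miR-431-5p: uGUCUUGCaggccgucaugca
mmu-miR-431-3p: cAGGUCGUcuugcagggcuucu
mmu-miR-127-5p: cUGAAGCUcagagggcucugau
mmu-miR-127-3p: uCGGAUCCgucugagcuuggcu
mmu-miR-300-5p: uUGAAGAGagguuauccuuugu
mmu-miR-300-3p: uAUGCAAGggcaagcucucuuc
mmu-miR-409-5p: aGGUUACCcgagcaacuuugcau
mmu-miR-409-3p: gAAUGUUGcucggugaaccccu
mmu-miR-412-5p: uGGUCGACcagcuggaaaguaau
mmu-miR-412-3p: uUCACCUGguccacuagccg
mmu-miR-369-5p: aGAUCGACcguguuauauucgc
mmu-miR-369-3p: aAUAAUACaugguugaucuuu

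Along the whole stretch the mark was called at 28 peaks, 15 of them at none of the 6 genes. Peaks covered 3.60% of the stretch, against 1.94% of the same length before Dlk1, 2.31% of the same length after Dio3 and 1.33% of chromosome 12. The number of peaks was similar in the 3 segments, at 28, 24 and 26, and each was denser than the 13.9 peaks per Mb of chromosome 12 (33.8, 29.0 and 31.4 per Mb). The stretch held 3 strong peaks among its 28, and the flanking segments held 0 among 24 and 26. The share in the stretch was close to that of chromosome 12, with 196 strong peaks among 1672. It was also close to the 10% of all peaks that are strong by definition. Summed ChIP tags, scaled to the control library, were 11.5 times the control tags (exact 95% interval 8.34 to 16.3), beside 11.9 (7.53 to 19.8) and 10.07 (6.89 to 15.3) in the flanks. These ratios are over called peaks alone, each with a fold of at least 4, and 14, 17 and 17 of the peaks stood at the lowest control value, so they do not compare enrichment over the whole segments.

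The other strong peaks of the stretch lay in the 530 kb between Mirg and Dio3. One (chr12:109901688-109903965) held 70.7 normalized tags, from 67.5 ChIP tags (52.4 to 85.6), beside 6 control tags. Its centre lay 362 kb past the Meg3 start, and peaks of 30.4 and 34.6 normalized tags followed it. Below the 3 strong peaks of the stretch, the latter was the tallest, before the Meg3 peak of 31.4. The second (chr12:110187324-110189441) held 56 normalized tags, from 53.5 ChIP tags (40.1 to 69.9), beside 4 control tags. It followed a gap of 235 kb without a peak.

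**Figure D3:**
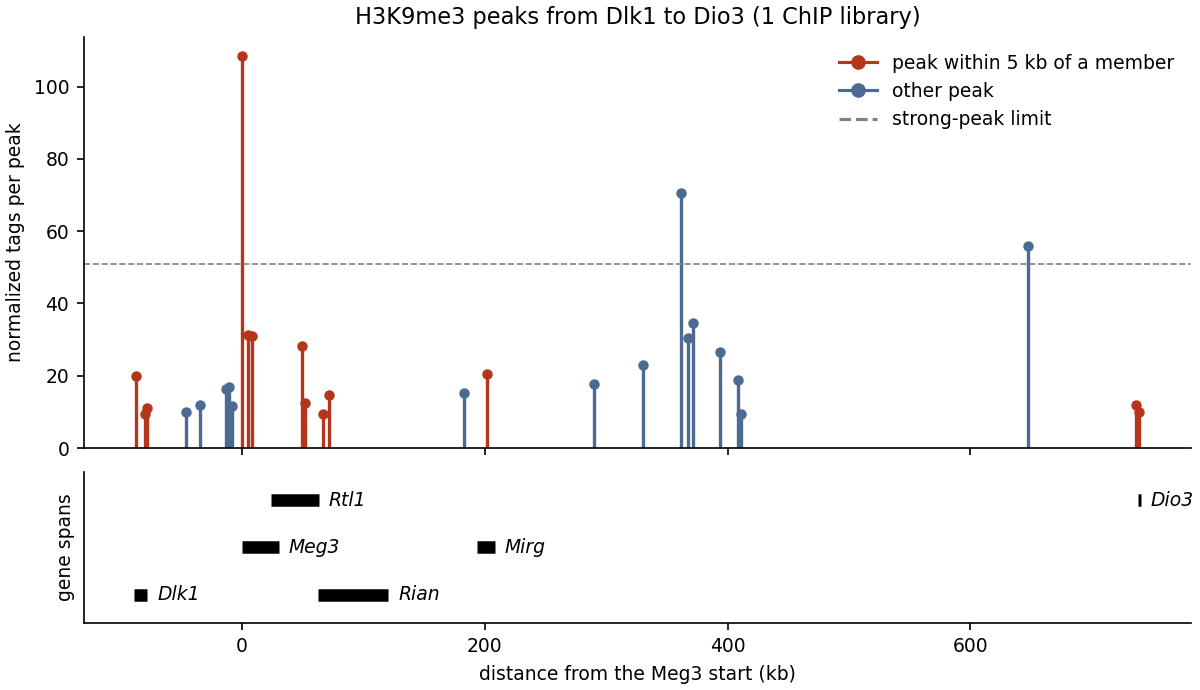
Normalized tags of the 28 peaks from Dlk1 to Dio3 against distance from the Meg3 start in kb (top; red within 5 kb of 1 of the 6 genes, blue elsewhere, dashed line at 50.8), above the spans of the 6 genes (bottom). The 108.4-tag peak at the Meg3 start and the 70.7- and 56-tag peaks between Mirg and Dio3 pass the line.

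Among 7 neighbouring genes outside the stretch, Begain, Wdr25, Wars1, Slc25a29, Yy1, Ppp2r5c and Dync1h1, 6 had a peak within 5 kb, where 55.6% of protein-coding genes did, and 0 had a strong one, where 6.61% did. The tallest peaks were 36.7 normalized tags at Slc25a29, a mitochondrial carrier gene, and 27.2 at Ppp2r5c, a phosphatase subunit gene. Begain and Wdr25 shared a tallest peak of 21. No peak was called at Yy1, a zinc finger transcription factor gene.

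The Meg3 peak was then set beside 21 genes of other imprinted regions. A peak was called at 20 of them and a strong one at 13. Over all genes the shares were 40.0% and 4.82%, and over protein-coding genes 55.6% and 6.61%, not matched for gene length. The 21 genes were listed as imprinted genes with germline control regions, and with earlier results of these data known. The shares therefore do not describe imprinted genes in general. By the normalized tags of the tallest peak within 5 kb, Meg3 stood at place 7 of the 21 genes that had one. Gnas (212.1), Peg3 (142.0), Nnat (131.0), Impact (127.8), Peg10 (124.1) and Mest (109.0) stood above it, and Snrpn (89.6) followed. The ChIP tag interval of Gnas (176 to 232) lay above that of Meg3. The intervals of 8 of the 20 genes overlapped that of Meg3, including its neighbours in the order, so their order was not resolved.

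The genes nearest to Meg3 in log2 normalized tags, over this 1 library, were Mest (a difference of 0.01), Peg10 (0.20) and Impact (0.24). The ChIP tags of the Meg3 peak were 0.995 times those of Mest (exact 95% interval 0.751 to 1.32), 0.873 times those of Peg10 (0.664 to 1.15) and 0.848 times those of Impact (0.646 to 1.11). The shapes differed more. The Meg3 peak was wider (4357 bp against 2772, 3503 and 2755 bp) and less dense (24.9 normalized tags per kb against 39.3, 35.4 and 46.4). Among the 13 imprinted genes with a strong peak, 1 had a wider tallest peak than Meg3 and 12 had a denser one. Control tags were 3 at Meg3 and 5, 9 and 10.5 at Mest, Peg10 and Impact.

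**Figure D4:**
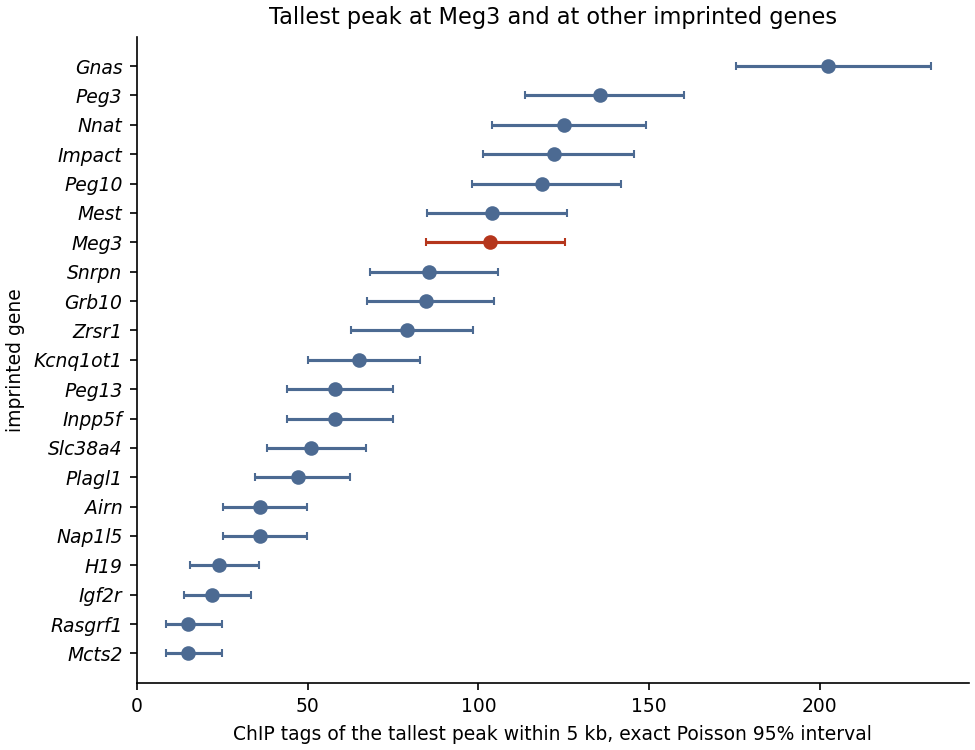
ChIP tags of the tallest peak within 5 kb of Meg3 (red) and of the 20 other imprinted genes with a peak (blue), with exact Poisson 95% intervals. Meg3 stands at 103.5 tags, beside Mest at 104 and between Gnas at 202.5 and the genes at 15 tags.

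Promoter windows were in the table for 17 of those 21 genes. For 6 of them a window overlapped a strong peak, as at Meg3, where 270 of all 27025 genes with windows had such a window. For 8 a window held TGCCGC, where 11.6% of all single windows did. The listed genes had 1 to 4 windows each, so that share is not like for like. A window under a strong peak that also held TGCCGC was present at 2 genes, Nnat and Mest.

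Genes that act on imprints, and genes of the pathways in which Dlk1 and Dio3 act, were looked up in the same way. Of 16 genes for imprint binding, silencing and DNA methylation or its removal, 13 had a peak and 0 a strong one, where 55.6% and 6.61% of protein-coding genes did. The tallest were at Tet1 (45.0 normalized tags) and Tet3 (41.4), which encode enzymes that oxidize methylated cytosine, and at Dppa3 (41.9), which protects maternal methylation. No peak was called at Zfp57, Setdb1 or Tet2. Of 8 Notch and thyroid hormone genes, 5 had a peak and 0 a strong one, close to those shares, led by the receptor gene Notch1 with 46.6 normalized tags. Dlk2, the paralog of Dlk1, had 1 of 22.5, and the deiodinase genes Dio1 and Dio2 and the Notch target gene Hes1 had none.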

How the data were processed

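The members and gene lists were chosen with earlier results of these data known. Bowtie2 2.2.8, HOMER 4.10.1 and the builds GRCm38 and mm10 are listed per the submitters' processing notes. Which settings the peak caller ran with is not stated. Per the file headers, the deposited list has HOMER's columns. The deposited signal values are tag counts per peak, not coverage. The ChIP signal was normalized by the authors to a fixed library total before the files were deposited, and control tags stand beside it. The deposited fold over control is a ratio with a lowest value of 4, and the deposited score and p-value (highest 8.32e-05) are the caller's own. All are the authors' values.

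Normalized tags below 30 were whole steps of 0.5 tag in 100% of 30961 values (tolerance 0.1 step), so tags were recovered at 1.05 normalized tags each. The control scale was 0.684 of the ChIP library. Total depth is not stated. Intervals are exact Poisson for tags and conditional binomial for ratios, at 95%, and cover counting error alone. Steps of 0.5 tag mean that the counts are not all whole, and the intervals take 1 tag as the independent unit.

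Gene spans came from a RefSeq table of GRCm38.p6, with 402 of 49997 genes left out because they had no position on chromosomes 1 to 19, X and Y. Gene spans there carry no exons, so exonic and intronic positions were not assigned. Text named all 6 genes, the 5 tallest peaks of the stretch, microRNA genes under peaks, and fixed lists. Gm34081 was named after its position was seen, and TGCCGC and TGACGTCA were chosen with the domain's biology known. The overlap counts were tested on simulated data, in which all 200 of 49595 genes given a peak were recovered (100%). Other windows, overlap rules, thresholds and merging were tried. Python 3.11.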

Additional observations from a re-analysis of the deposited data

How the results depend on the processing

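Of 28 alternative values, 22 stayed within the limits set for the same result and 6 moved. Counts were allowed a fixed fold change, so 4 of the 6 genes with a peak still counted as the same. The covered share was held to a narrow interval that treats single bases as independent (3.56% to 3.64%). Merging peaks within 1 kb could not change the tallest Meg3 peak, as the next peak began 2171 bp further on. The tally therefore does not measure how robust the results are. All 6 genes kept a peak with the gene span alone, with 2 or 10 kb on either side and at a fold of at least 8. A window of 10 kb could not lose a peak. Every peak of Rian, Mirg and Dio3 stood at the lowest control value. There even 9 ChIP tags gave a fold of 12.32, so these genes could not fail at 8. Dlk1 passed through 1 such peak alone, and its tallest, with a fold of 6.5, did not pass. Among peaks at or above the median score, 4 genes kept a peak. Dlk1, Meg3, Rtl1 and Rian had 1 each there, and Mirg and Dio3 had none. The number with a strong peak was 1 under every window, overlap rule and limit tried. The tallest Meg3 peak could not be lost, as it touches the span and lies above 98.3% of all peaks by normalized tags. These settings could only have added genes. The 13 peaks at the genes became 4 among peaks at or above the median score and 7 when peaks within 5 kb were merged. The 28 peaks of the stretch became 11 and 17 under the same settings. The covered share of 3.60% became 1.85% among peaks at or above the median score and 2.68% at a fold of at least 8, as fewer peaks enter. No paired analysis was possible because each group holds 1 library. Apart from the tallest Meg3 peak, the peaks at the genes rested on 9 to 30 ChIP tags and 0.5 to 3 control tags, which limits their order and their folds.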

Other observations

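Across all promoter windows, 13.1% overlapped a peak and 0.895% a strong one. TGCCGC was present in 17.6% of the 4293 windows under a peak and in 15.6% of the 294 under a strong peak, against 11.6% of all windows. TGACGTCA was present in 2.77% and 4.76%, against 1.79%, and both words in 21 and 3 windows. The 3 windows with both words under a strong peak include that of Meg3. Windows under peaks also held more CpG dinucleotides, with medians of 18 and 15 against 7, and both words contain CpG. The part of CpG content in these shares was not tested, and windows of 1 gene are not independent.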
